A study of Mus musculus with 20 samples.

Results

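The vascular endothelial growth factor (VEGF) and angiopoietin genes described here are 10 of the 15015 genes named in the deposited tables of isolated cardiac cells. They are the ligands *Vegfa*, *Vegfb*, *Vegfc* and *Pgf* with the receptors *Kdr* and *Flt1*, and the ligands *Angpt1* and *Angpt2* with the receptor *Tek* and its relative *Tie1*. Members were chosen by symbol, and each gene was read in each table at the transcript row with the highest mean. All 10 had a row in all 3 tables. The study isolated endothelial cells (ECs), fibroblasts (FBs) and cardiomyocytes (CMs) from hearts of wild-type (WT) and *Gadlor*-KO mice and sequenced their mRNA in bulk. *Gadlor*-KO mice carry a homozygous CRISPR-Cas9 deletion on chromosome 16 in every cell, which removes the long non-coding RNA genes *Gadlor1* and *Gadlor2*, and the line goes back to edited G4 embryonic stem cells injected into C57BL/6 blastocysts. Every sample, WT included, came from hearts 2 weeks after transverse aortic constriction (TAC), a narrowing of the aorta that imposes pressure overload, done at 8 to 10 weeks of age. There were 4 WT and 4 KO samples of ECs, 3 and 3 of FBs and 3 and 3 of CMs, and no sham-operated samples are analysed here, so the values compare genotypes under overload. ECs had been selected with beads against CD146, an antigen that mural cells also carry, FBs with feeder removal beads from the flowthrough, and CMs by enzymatic perfusion and sedimentation. *Gadlor1* and *Gadlor2* were not analysed here, and no value here checks which samples carry the deletion.

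VEGF-A binds the receptor tyrosine kinase VEGFR2, the product of *Kdr*, which drives proliferation, migration and permeability of endothelium. The product of *Flt1*, VEGFR1, binds VEGF-A more tightly but signals weakly, and its soluble form acts as a decoy. PlGF (*Pgf*) and VEGF-B (*Vegfb*) bind VEGFR1 and not VEGFR2, while VEGF-C (*Vegfc*) serves mainly lymphatic vessels through VEGFR3. Angiopoietin-1, made by perivascular cells, activates TIE2 (*Tek*) and keeps vessels quiescent, angiopoietin-2, stored in endothelium, can oppose it, and TIE1 is a partner of TIE2 without a firmly bound ligand of its own. In the heart, cardiomyocytes are a known source of VEGF-A and VEGF-B for the capillaries that surround them.

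Values are log2 CPM as deposited, where CPM is the read count scaled to a common library size, so that a step of 1 is a doubling of the share of reads. Effective library sizes, read from the smallest steps between low values, were 40.1 to 55.4 M reads in ECs, 15.0 to 59.8 M in FBs and 10.6 to 20.2 M in CMs. The labelled cell types were checked against markers. In ECs the 10 endothelial markers averaged 8.24 to 8.54 log2 CPM in all 8 samples, and 8 mural markers averaged 7.22 to 7.62. Cardiomyocyte markers averaged 3.93 to 5.98 in WT and 4.69 to 5.26 in KO ECs, and fibroblast markers 4.84 to 5.60 and 4.23 to 5.29. The mitochondrial share of the CPM was 2.74% to 4.54% in WT ECs, 6.97% in KO-105, 11.6% in KO-108 and 4.24% and 4.35% in KO-131 and KO-133. Scaling without mitochondrially encoded genes moved the calls in ECs from 290 higher and 740 lower to 384 and 654, with 1 member higher and 2 lower in both. In FBs, the sample WT-260 stood apart, with 59.7% of its CPM in mitochondrially encoded genes where the remaining WT samples had 2.07% and 3.07% and the KO samples 31.1% to 45.2%. In CMs the labelled cell type was weak in the KO samples: the 8 cardiomyocyte markers averaged 11.02 to 11.43 in WT and 5.65 to 8.92 in KO samples and all 8 were lower, while 10 of 10 endothelial, 6 of 7 fibroblast and 8 of 8 macrophage markers were higher. The mitochondrial share was 15.5% to 30.0% in WT and 49.1% to 62.5% in KO CMs. In bulk samples, fewer cells of a type and less RNA per cell cannot be told apart.

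In WT hearts the ligands and receptors of the VEGF system lay in different cell types. *Vegfa* (chr17:46016993-46032369, minus strand, mm10) was highest in CMs, at 7.66, 7.89 and 6.70 log2 CPM, against 4.76, 5.85 and 5.55 in FBs and 5.09, 5.16, 5.31 and 5.24 in ECs. The CM samples were all above the others, whereas the FB and EC ranges overlapped. *Vegfb* (chr19:6982473-6987651, minus strand) showed the same order with a wider gap, at 7.71, 7.54 and 8.67 in CMs, 4.51, 3.95 and 3.79 in FBs and 3.07, 3.39, 4.01 and 3.89 in ECs. Per kilobase of the transcript row, WT CMs held a mean of 209.0 CPM of *Vegfb* and 52.5 CPM of *Vegfa*. The *Vegfa* row used has 3451 bases, and a row of 975 bases had the same values. The *Vegfa* value per kilobase thus depends on which of these tied rows is taken, and the 2 genes cannot be compared by it. *Vegfc* (chr8:54077606-54187096, plus strand) had the opposite order, with 4.45 ± 0.10 in ECs (mean ± SD, n = 4), 3.49 ± 0.15 in FBs and -0.45 ± 0.36 in CMs (n = 3 each), and the ranges of the 3 cell types were separate. *Pgf* (chr12:85166635-85177790, minus strand) lay at 3.55 ± 0.13 in ECs and 2.72 ± 0.86 in FBs, which overlapped, and at -0.31 ± 0.68 in CMs. In WT CMs *Vegfc* rested on 10 to 16 reads and *Pgf* on 7 to 22 reads.

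The receptors were among the most abundant transcripts of ECs. *Flt1* (chr5:147561604-147726011, minus strand) lay above 99.6% of the genes of the EC table at 9.71 ± 0.13 log2 CPM in WT ECs (n = 4), *Tie1* (chr4:118471191-118490061, minus strand) above 99.5% at 9.35 ± 0.11, and *Kdr* (chr5:75932827-75978458, minus strand) above 99.4% at 9.21 ± 0.15. *Tek* (chr4:94739289-94874976, plus strand) was lower, at 7.45 ± 0.10, above 96.7% of the genes. Per kilobase the order in WT ECs was *Tie1* with 160.3 CPM, *Flt1* with 121.7, *Kdr* with 100.4 and *Tek* with 38.6. In WT CMs *Kdr*, *Flt1* and *Tie1* lay at means of 4.55, 4.60 and 5.08 log2 CPM and in WT FBs at 3.76, 3.17 and 3.04, and the CM and FB ranges of each overlapped. *Tek* was the receptor with the highest level outside ECs relative to its EC level, at 5.60, 4.57 and 5.26 in WT FBs against 2.94, 3.61 and 0.14 in WT CMs, with no overlap. The WT FB samples with few endothelial transcripts were those with *Tie1* at 0.11 and 2.95, and these same samples held *Tek* at 4.57 and 5.26.

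The angiopoietins were split between cell types as well. *Angpt1* (chr15:42424723-42676977, minus strand) was highest in FBs, at 3.50, 3.33 and 3.01 log2 CPM in WT, against 2.42, 1.35 and -0.97 in CMs and 0.12 to 0.50 in ECs, and the CM and EC ranges overlapped. *Angpt2* (chr8:18690263-18741562, minus strand) was highest in ECs, at 3.53, 3.51, 3.77 and 3.27, then in FBs at 1.46, 2.09 and 1.40, and lowest in CMs at -0.75, -0.63 and -1.29, which are 7 to 11 reads. The *Angpt1* value is uncertain because 737 of its 5205 exonic bases are shared with the antisense gene *Gm17473*, and the counting is not stated to use strand. In *Gadlor*-KO samples the orders were less separate. *Vegfa* overlapped between all neighbouring cell types (FBs 4.96, CMs 4.43, ECs 4.41), as did *Vegfb* (CMs 4.56, FBs 3.93, ECs 3.77), while the 4 receptors and *Angpt2* stayed highest in ECs and *Angpt1* in FBs. The 3 tables were normalized separately, so these orders are a description with no test. Scaled without mitochondrially encoded genes, the cell type with the highest mean in WT was the same for all 10 members. In KO samples it then changed to CMs for *Vegfa* and to FBs for *Vegfc*. *Kdr* and *Angpt2* of ECs then overlapped with CMs, and *Pgf* of ECs with FBs.

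**Figure D1:**
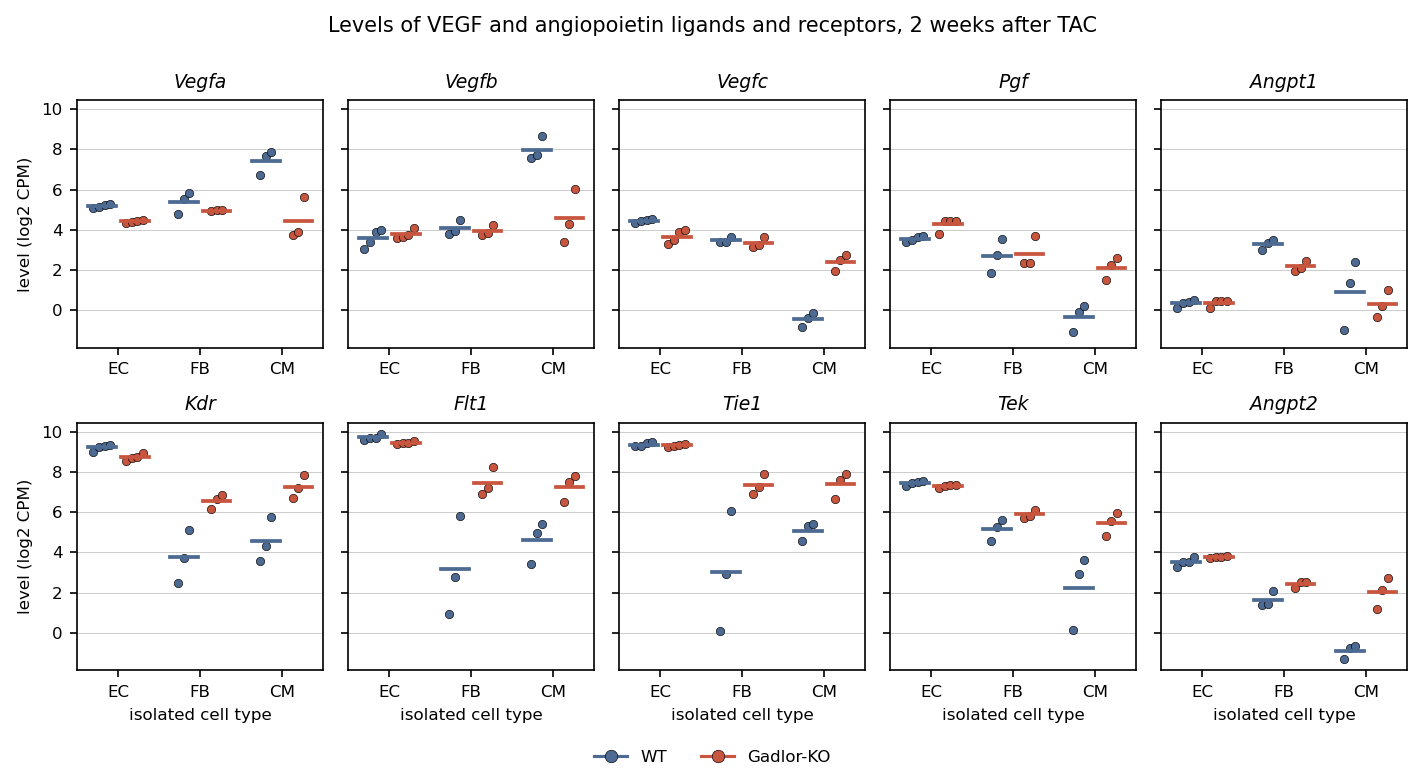
Levels of the 10 genes in log2 CPM (y axis) in each of the 20 samples, grouped by isolated cell type (x axis) and genotype (blue WT, red *Gadlor*-KO); points are samples and bars group means. *Vegfa* and *Vegfb* peaked in WT CMs (means 7.42 and 7.97), and *Kdr*, *Flt1*, *Tie1* and *Tek* in ECs.

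In ECs, *Vegfa* and *Vegfc* were lower and *Pgf* higher in *Gadlor*-KO than in WT samples, so that 2 members were called lower and 1 higher. Of all genes measured in ECs, 5.31% were called lower and 2.08% higher. A gene was called at a Benjamini-Hochberg adjusted p under 0.05 in limma, over all genes of the table, with a fold change above 1.5. *Vegfa* had values of 5.09, 5.16, 5.31 and 5.24 log2 CPM in WT samples and of 4.32, 4.49, 4.40 and 4.45 in KO ECs. Every KO sample was below every WT sample, and the spread within each genotype was small. The difference was -0.78 (SE 0.07, 1.72-fold lower, limma adjusted p = 3.92e-05). *Vegfc* had 4.55, 4.49, 4.32 and 4.43 in WT and 3.99, 3.90, 3.48 and 3.31 in KO ECs. The samples KO-131 and KO-133 were the lowest, and the genotypes did not overlap (difference -0.78, SE 0.14, limma adjusted p = 0.00526). *Pgf* had 3.51, 3.67, 3.38 and 3.63 in WT and 3.81, 4.46, 4.44 and 4.45 in KO ECs. The sample KO-105 was close to the WT range and the other 3 were well above it (difference 0.74, SE 0.15, limma adjusted p = 0.00722). The macrophage markers averaged 1.55 and 1.65 log2 CPM in the samples KO-131 and KO-133 against 3.28 to 4.10 in the other 6 samples, with 0 of 8 called. Without these KO samples, a setting added after the values were seen, *Vegfc* differed by -0.50 (limma adjusted p = 0.0072), under the fold threshold, and *Pgf* by 0.59 (limma adjusted p = 0.0669), so neither was called, whereas *Vegfa* still was. The lymphatic endothelial markers, of which 3 of 5 were called higher, averaged 2.58 to 2.72 in WT ECs and more in every KO sample, at most 3.32. The part of macrophage or lymphatic RNA in these differences was not tested.

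The remaining EC ligands did not pass. *Vegfb* lay at 3.07 to 4.01 log2 CPM in WT and 3.62 to 4.08 in KO ECs (log2 fold change 0.19, 95% confidence interval -0.29 to 0.66), and the ranges overlapped. *Vegfb* minus the mean of the cardiomyocyte markers was -1.97 to -0.86 in WT and -1.19 to -1.07 in KO ECs. For *Vegfa* it was -0.67 to 1.16 and -0.77 to -0.24. Both pairs of ranges overlapped, and the part of cardiomyocyte RNA in the EC levels of these ligands was not tested. *Angpt2* lay at 3.27 to 3.77 in WT and 3.73 to 3.84 in KO ECs, a difference of 0.27 (SE 0.10, limma adjusted p = 0.0699). *Angpt1* was near the bottom of the table, at 0.12 to 0.50 in WT and 0.12 to 0.49 in KO ECs, from 53 to 72 reads a sample. The 95% confidence interval of its difference was -0.34 to 0.40, so differences within those bounds are compatible with the values.

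The VEGF receptors were slightly lower in KO ECs. *Kdr* had values of 9.26, 9.34, 9.25 and 8.99 log2 CPM in WT samples and of 8.94, 8.56, 8.73 and 8.69 in KO ECs. The highest KO sample was just below the lowest WT sample. The difference of -0.48 (SE 0.10, 1.40-fold, limma adjusted p = 0.00864) passed the p threshold and not the fold threshold. *Flt1* had 9.56, 9.69, 9.88 and 9.70 in WT and 9.54, 9.43, 9.44 and 9.37 in KO ECs. The groups did not overlap, but by a margin of hundredths, and the difference was -0.26 (SE 0.08, limma adjusted p = 0.0465). With no fold threshold 4 members were thus lower, *Vegfa*, *Vegfc*, *Kdr* and *Flt1*, where 11.3% of the genes of the table were. Without KO-131 and KO-133, *Kdr* differed by -0.46 (limma adjusted p = 0.0538) and *Flt1* by -0.23 (limma adjusted p = 0.185), so neither passed the p threshold. The same 4 members had KO samples all below WT, and 12.6% of the genes did, while *Pgf* was the member with KO samples all above WT, as for 13.6% of the genes. The angiopoietin receptors did not pass the p threshold. *Tie1* lay at 9.26 to 9.46 in WT and 9.24 to 9.37 in KO ECs (log2 fold change -0.05, interval -0.21 to 0.12), a value whose sign turned to 0.0055 when mitochondrially encoded genes were left out of the scaling. *Tek* lay at 7.32 to 7.53 in WT and 7.19 to 7.35 in KO ECs (-0.17, SE 0.07, limma adjusted p = 0.109). The 10 endothelial markers were not called in either direction and had a median log2 fold change of 0.08. Set against their mean within each sample, *Kdr* lay 0.62 to 1.01 above it in WT and 0.15 to 0.46 above it in KO ECs, and *Flt1* 1.17 to 1.64 and 0.83 to 1.06 above it. Neither pair of ranges overlapped. *Tie1* relative to the markers overlapped between genotypes, at 0.89 to 1.07 and 0.80 to 0.93, whereas *Tek* minus the marker mean was -1.05 to -0.79 in WT and -1.26 to -1.09 in KO ECs, again without overlap. Such a difference within a sample does not depend on how the sample was scaled.

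**Figure D2:**
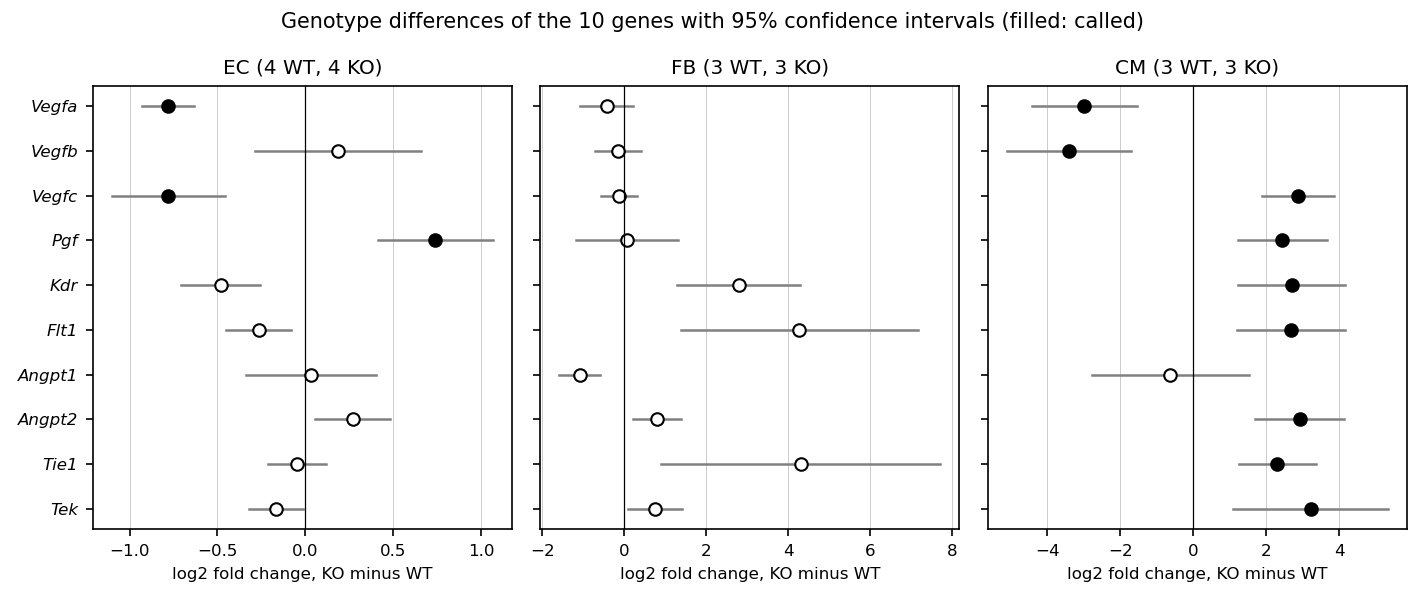
Log2 ratio of *Gadlor*-KO to WT (x axis, a different scale in each panel) for the 10 genes (y axis) in ECs, FBs and CMs; lines are 95% confidence intervals from limma and filled circles are called genes. In ECs 3 members were called, in FBs 0 and in CMs 9.

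**Figure D3:**
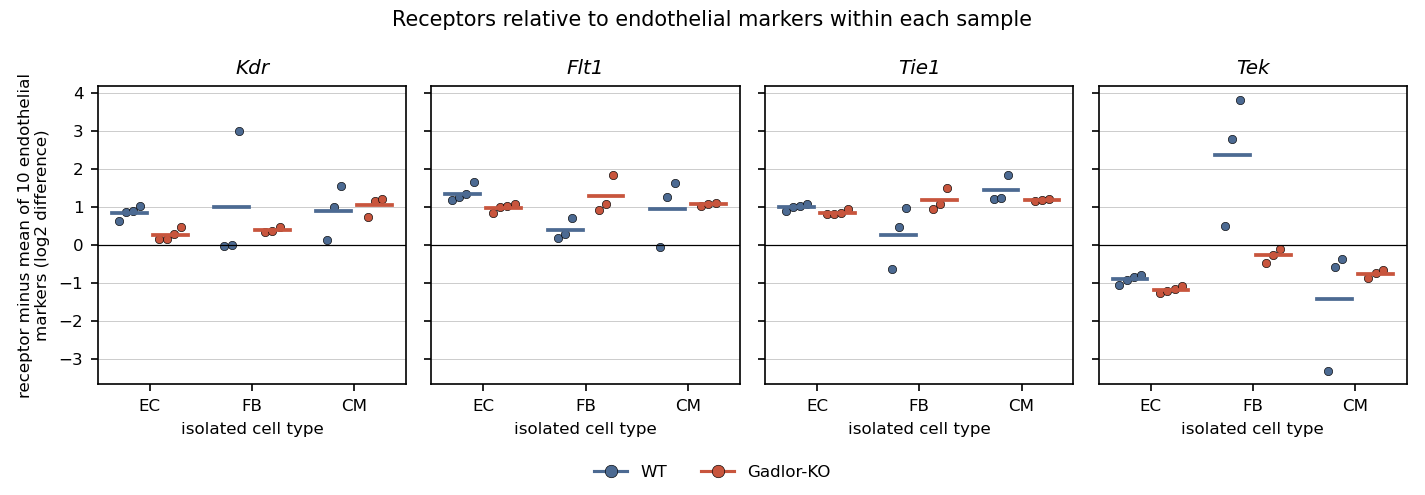
Level of each receptor minus the mean of 10 endothelial markers in the same sample (y axis, log2 difference) by isolated cell type (x axis) and genotype; points are samples and bars group means. In ECs *Kdr* was 0.85 above the markers in WT and 0.27 in KO samples on average, and in CMs 0.90 and 1.04.

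Transcript rows of *Flt1* and *Vegfa* were examined next, because their isoforms differ in function. The annotation (GENCODE vM21, mm10) holds a *Flt1* transcript of 1333 codons for the membrane receptor and one of 688 codons, which reads on into the intron and encodes the soluble decoy. They share 1972 coding bases and part after position 147639225 of chromosome 5 (minus strand). The last 30 shared bases are in lower case and the bases after the split in capitals.
Flt1 membrane form: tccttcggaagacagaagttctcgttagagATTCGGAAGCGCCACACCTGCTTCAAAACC
Flt1 soluble form: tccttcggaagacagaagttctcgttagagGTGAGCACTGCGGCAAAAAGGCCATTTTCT
The row of the soluble form lay below that of the membrane form in every sample of every cell type. The difference (soluble minus membrane row, log2) was -1.38 to -1.32 in WT and -1.40 to -1.19 in KO ECs, -1.47 to -1.10 and -1.22 to -1.17 in FBs, and -1.38 to -1.15 and -1.29 to -1.05 in CMs. The genotypes overlapped in all 3 cell types. Reads from the shared exons may enter both rows, so these are differences between rows and not between isoforms.

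*Vegfa* isoforms part after position 46024065 of chromosome 17 (minus strand), where the choice of exons sets how firmly the protein binds heparan sulfate. The 3 rows below share 419 coding bases from a common ATG and end after 146, 190 and 214 codons.
Vegfa short form: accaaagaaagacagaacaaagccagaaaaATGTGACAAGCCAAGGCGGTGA
Vegfa middle form: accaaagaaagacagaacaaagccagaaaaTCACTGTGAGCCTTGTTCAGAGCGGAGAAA
Vegfa long form: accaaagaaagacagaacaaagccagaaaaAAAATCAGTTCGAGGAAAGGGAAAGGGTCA
The short form diffuses freely, the middle form, whose row gave the values above, binds to an intermediate degree, and the long form is the one that stays bound to matrix. In ECs these rows fell by 0.77, 0.78 and 0.88 on the log2 scale from WT to KO, and both rows of 513 and 654 bases fell by 0.99 each. The adjusted p-values from limma over all transcript rows were at most 5.16e-05 for these 5 rows. Within each EC sample the long row minus the middle row was -0.67 to -0.59 in WT and -0.78 to -0.71 in KO samples, with no overlap, a description of rows that share most of their reads. In FBs and CMs the same difference overlapped between genotypes.

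Partners of the receptors in ECs were examined as a list of 30 genes. It held co-receptors, phosphatases and signalling proteins, and also the ligands *Vegfd* and *Angpt4*, the receptor *Flt4*, integrins, *Svep1* and *Foxo1*. Of the 27 measured, 0 were called, and 0 before adjustment (p under 0.05, fold above 1.5), and the median log2 fold change was 0.01 against 0.03 over all genes. *Nrp1*, the VEGF co-receptor neuropilin-1, lay at 8.10 ± 0.11 in WT and 7.75 ± 0.12 in KO ECs (n = 4 each, difference -0.35, limma adjusted p = 0.0144), below the fold threshold. *Pxn*, the focal adhesion protein paxillin, differed by 0.27, *Pik3r1*, a PI3-kinase regulatory subunit, by -0.18 and *Grb2*, an adaptor, by 0.16. Of 22 genes of the hypoxia-inducible factor (HIF) pathway, which controls *Vegfa* transcription under low oxygen, 2 rose in KO ECs and 0 fell, with a median of -0.01. *Ddit4*, an inhibitor of mTOR signalling, rose from 5.35 ± 0.36 to 6.70 ± 0.09 and *Hif3a*, a HIF subunit, from 0.88 ± 0.78 to 2.54 ± 0.39. *Egln3*, a HIF prolyl hydroxylase, differed by 0.52 and *P4ha1*, a collagen prolyl hydroxylase, by -0.33, neither beyond the fold threshold.

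Genes that VEGF induces in endothelium were mostly lower in KO ECs. Of 20 measured, 13 fell and 1 rose, with a median log2 fold change of -0.83 against 0.03 over all genes, where 5.31% of genes fell. Like the other lists, this one was chosen with earlier results of these data known. Its counts beside the share of all genes are therefore a description. *Nr4a2*, a nuclear receptor of the immediate early class, fell from 7.30 ± 0.09 to 5.05 ± 0.31 log2 CPM, *Egr3*, an early growth response factor, from 5.98 ± 0.16 to 3.16 ± 0.35, *Sele*, the adhesion molecule E-selectin, from 4.31 ± 0.19 to 2.70 ± 0.28, and *Adamts1*, a protease that can sequester VEGF-A, from 9.94 ± 0.17 to 8.63 ± 0.20 (n = 4 each). In all 4 genes every KO sample was below every WT sample. EGR and NR4A factors, which are 6 of the 13 that fell, are immediate early genes that many stimuli besides VEGF induce. The gene that rose was *Apln*, the tip cell peptide apelin (log2 fold change 1.05). Without the samples KO-131 and KO-133 the counts were 11 lower and 0 higher, and the share of all genes called without them was not counted.

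**Figure D4:**
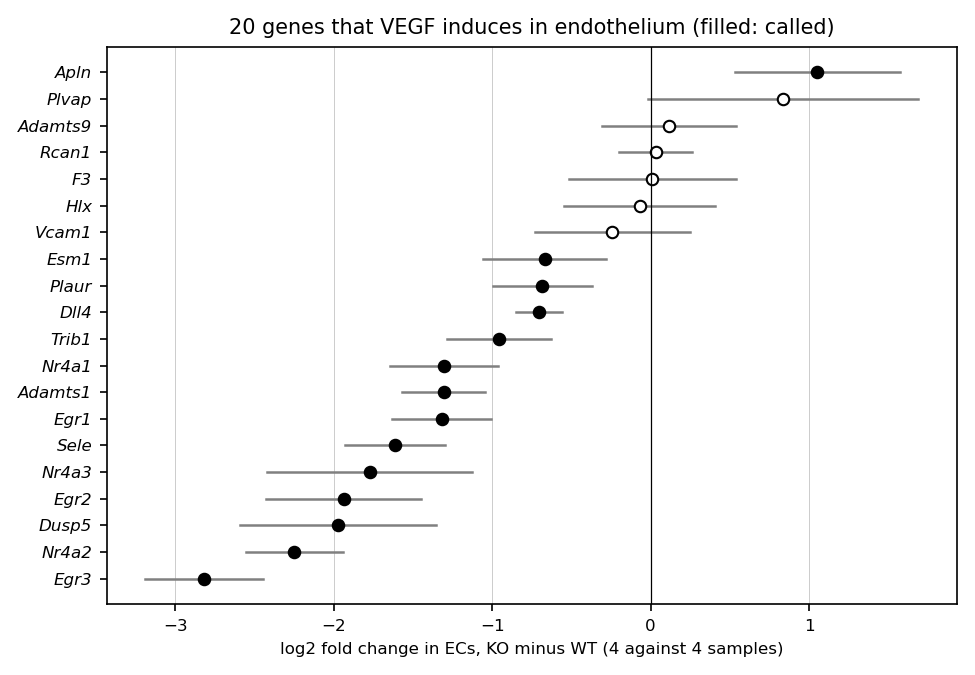
Log2 ratio of *Gadlor*-KO to WT ECs (x axis) for 20 genes that VEGF induces in endothelium (y axis, sorted); lines are 95% confidence intervals from limma and filled circles are called genes. There were 13 called genes below 0 and 1, *Apln*, above. The list was chosen with earlier results of these data known.

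In FBs no member was called, and limma called 1 gene in the whole table, higher (0.00737% of 13563), and none lower (0.0%). Before adjustment (p under 0.05, fold above 1.5), 5 members were higher (*Kdr*, *Flt1*, *Tie1*, *Tek* and *Angpt2*) where 7.03% of the genes were, and 1 was lower (*Angpt1*) where 4.38% were. limma without trend and robust settings called 0 members too. *Flt1* had values of 5.81, 0.94 and 2.77 log2 CPM in the samples WT-260, WT-277 and WT-283 and of 8.22, 7.22 and 6.88 in KO FBs. The WT samples spread over most of the scale, and WT-260 was the closest to the KO range. *Tie1* followed the same order of samples, with 6.06, 0.11 and 2.95 in WT and 7.88, 7.24 and 6.90 in KO FBs. *Kdr* lay at 5.09, 3.73 and 2.47 in WT and 6.84, 6.66 and 6.16 in KO FBs, and *Tek* at 5.60, 4.57 and 5.26 and 6.12, 5.82 and 5.71. All 4 receptors were thus above every WT sample in every KO sample. The differences were 4.27 for *Flt1*, 4.30 for *Tie1*, 2.79 for *Kdr* and 0.74 for *Tek*, with adjusted p-values from limma between 0.16 and 0.277.

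Endothelial markers moved with the receptors in FBs. Their mean was 5.10, 0.75 and 2.48 log2 CPM in the samples WT-260, WT-277 and WT-283 and 6.38, 6.29 and 5.82 in KO FBs, with 10 of 10 markers detected in every sample, 0 called and a median log2 fold change of 3.57. Cardiomyocyte markers averaged 5.29, 0.56 and 1.73 in WT and 4.03 to 4.69 in KO FBs. Relative to the endothelial markers, *Kdr* and *Tie1* overlapped between genotypes, *Flt1* was higher in KO FBs (0.92 to 1.84 against 0.18 to 0.71) and *Tek* was lower (-0.47 to -0.10 against 0.50 to 3.82). With the endothelial marker mean as a covariate, *Tie1* and *Tek* turned to -0.29 and -0.048. The covariate did not overlap between the genotypes, so genotype and endothelial RNA cannot be told apart in that fit. The part of endothelial RNA in the FB values was thus not tested.

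The FB ligands moved less. *Angpt1* had values of 3.50, 3.33 and 3.01 log2 CPM in WT samples and of 2.12, 1.97 and 2.46 in KO FBs. All KO samples were below all WT samples (difference -1.09, SE 0.21, limma adjusted p = 0.141). The 7 fibroblast markers averaged 8.74 to 9.63 in WT and 8.28 to 8.70 in KO FBs, with 0 called and a median of -0.76. *Angpt1* minus their mean was -6.30 to -5.23 in WT and -6.43 to -6.16 in KO FBs, which overlapped. Minus the mean of 8 mural markers it was -1.08 to -0.16 and -3.30 to -2.42, without overlap. The part of cell composition in this difference was not tested. *Angpt2* had 1.46, 2.09 and 1.40 in WT and 2.54, 2.23 and 2.55 in KO FBs (0.79, SE 0.25, limma adjusted p = 0.219), again without overlap. The 5 members that did not overlap upwards and the 1 downwards compare with 12.2% and 9.09% of the genes of the table. *Vegfa* had 4.76, 5.85 and 5.55 in WT and 4.94, 4.96 and 4.98 in KO FBs, where WT-260 was below and the other WT samples above the KO samples. *Vegfb*, *Vegfc* and *Pgf* overlapped between genotypes, with differences of -0.15, -0.13 and 0.07. Without WT-260, 3 members were called higher (*Kdr* by 3.45, *Flt1* by 5.58 and *Tie1* by 5.81) and 2 lower (*Vegfa* by -0.74 and *Angpt1* by -0.98). The share of all genes called without that sample was not counted, so whether these calls are more than that share is not known. Of the lists in FBs, 0 of 28 partners, 0 of 21 HIF pathway genes and 0 of 19 VEGF-induced genes were called, with medians of 0.12, 0.13 and 0.26 against 0.01 over all genes. Before adjustment (p under 0.05, fold above 1.5), 6 partners were higher and 2 lower, 2 HIF pathway genes higher and 0 lower, and 3 VEGF-induced genes higher and 1 lower. The smallest adjusted p-values among partners were those of *Yes1*, a Src family kinase (log2 fold change 1.29), *Ptprb*, the endothelial phosphatase VE-PTP that acts on TIE2 (2.40), *Nrp2*, the co-receptor neuropilin-2 (1.61), and *Src* (-0.83). Among HIF pathway genes they were those of *Epas1*, the endothelial HIF subunit (1.59), *Ldha* (0.44), *Adm* (-0.51) and *Ndrg1* (0.95), and among VEGF-induced genes those of *F3*, tissue factor (-1.06), *Sele* (1.43), *Adamts9* (1.28) and *Dll4*, a Notch ligand (5.25).

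In CMs, 9 of the 10 members were called, 2 lower and 7 higher in *Gadlor*-KO than in WT samples, where 19.6% of the 13038 genes were called lower and 21.3% higher. *Vegfa* had values of 7.66, 7.89 and 6.70 log2 CPM in WT samples and of 3.91, 3.75 and 5.64 in KO CMs. *Vegfb* had 7.71, 7.54 and 8.67 in WT and 4.28, 3.40 and 6.02 in KO CMs. For both ligands every KO sample was below every WT sample, and KO 3 was the highest of the KO samples. The log2 fold changes were -2.99 for *Vegfa* (SE 0.60, limma adjusted p = 0.0101) and -3.41 for *Vegfb* (SE 0.71, limma adjusted p = 0.0108). The cardiomyocyte markers fell in the same samples, to means of 6.20, 5.65 and 8.92 in KO 1, 2 and 3 from 11.43, 11.14 and 11.02 in WT 1, 2 and 6. Their median log2 fold change was -4.33, below that of either ligand. *Vegfa* minus the marker mean was -3.77, -3.25 and -4.32 in WT and -2.29, -1.90 and -3.28 in KO CMs. *Vegfb* minus the marker mean was -3.73, -3.60 and -2.35 in WT and -1.92, -2.25 and -2.90 in KO CMs. Relative to cardiomyocyte markers, a comparison added after the values were seen, neither ligand was lower in KO samples and the ranges overlapped.

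**Figure D5:**
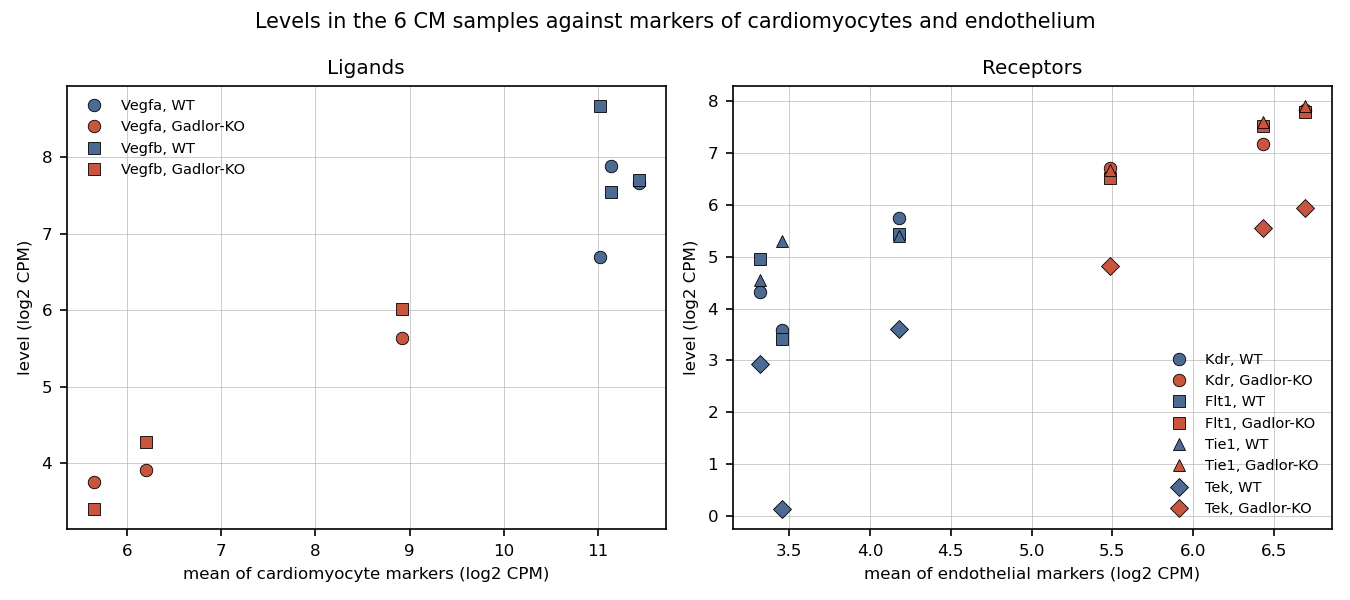
Levels in the 6 CM samples (y axis, log2 CPM) of *Vegfa* and *Vegfb* against the mean of 8 cardiomyocyte markers (left, x axis, log2 CPM) and of *Kdr*, *Flt1*, *Tie1* and *Tek* against the mean of 10 endothelial markers (right). The KO sample with the highest cardiomyocyte markers, at 8.92, also had the highest *Vegfa* and *Vegfb* of the KO samples, at 5.64 and 6.02.

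The 4 receptors rose in CMs. *Kdr* had values of 4.32, 5.74 and 3.58 log2 CPM in WT samples and of 6.71, 7.83 and 7.18 in KO CMs (difference 2.69, SE 0.61, limma adjusted p = 0.0142). *Flt1* had 4.95, 5.43 and 3.41 in WT and 6.51, 7.78 and 7.51 in KO CMs (2.67, SE 0.62, limma adjusted p = 0.015). In both genes KO 2 was the highest sample and no KO sample reached down to the WT range. *Tie1* had 4.55, 5.39 and 5.30 in WT and 6.66, 7.90 and 7.59 in KO CMs (2.30, SE 0.45, limma adjusted p = 0.00857). *Tek* had 2.94, 3.61 and 0.14 in WT and 4.82, 5.94 and 5.56 in KO CMs, with WT 6 far below the other WT samples (3.21, SE 0.89, limma adjusted p = 0.0277). Without KO 2, *Kdr* and *Flt1* were no longer called (limma adjusted p = 0.0558 and 0.0584), nor was *Tek* without KO 1, KO 2 or KO 3 (0.0568, 0.0940 and 0.0731). The ligands *Vegfc*, *Angpt2* and *Pgf* rose too. *Vegfc* lay at -0.38, -0.14 and -0.84 in WT and 1.95, 2.74 and 2.52 in KO CMs (2.85, SE 0.42, limma adjusted p = 0.00578). *Angpt2* lay at -0.75, -0.63 and -1.29 in WT and 1.21, 2.74 and 2.11 in KO CMs (2.91, SE 0.52, limma adjusted p = 0.0072). *Pgf* lay at -1.07, -0.05 and 0.20 in WT and 1.52, 2.28 and 2.59 in KO CMs (2.44, SE 0.51, limma adjusted p = 0.0107). None of these 3 ligands overlapped between genotypes. Altogether 7 members did not overlap upwards and 2 downwards, against 31.1% and 28.4% of the genes of the table. *Angpt1* was the member without a call, at 2.42, 1.35 and -0.97 in WT and 0.20, -0.32 and 1.04 in KO CMs, from 9 to 90 reads, and its difference of -0.63 turned to 0.18 when mitochondrially encoded genes were left out of the scaling and to 0.12 without WT 1.

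Endothelial markers rose with the receptors in the CM samples. Their mean was 3.32, 4.18 and 3.45 log2 CPM in WT 1, 2 and 6 and 5.49, 6.69 and 6.43 in KO 1, 2 and 3, all 10 were called higher and their median log2 fold change was 2.45. Relative to that mean, *Kdr* (0.13 to 1.56 in WT, 0.75 to 1.22 in KO), *Flt1* (-0.05 to 1.63 and 1.03 to 1.09) and *Tek* (-3.31 to -0.38 and -0.87 to -0.67) overlapped between genotypes, and *Tie1* was lower in KO CMs (1.16 to 1.21 against 1.21 to 1.85), where the ranges just failed to touch. *Vegfc*, *Pgf* and *Angpt2* relative to the markers overlapped as well. Of 7 fibroblast markers 6 were called higher, with a median log2 fold change of 4.37. These ligands were not set against the fibroblast markers. With the endothelial marker mean as a covariate, 0 members were called in CMs. The covariate did not overlap between the genotypes, so the 2 cannot be told apart in that fit.

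The promoters of the 4 receptors are shown as 250 bases before the RefSeq start site (GRCm38.p6, 5′ to 3′ on the strand of the gene). Their part in the values above was not tested. Capitals mark AGGAAG on either strand, a core bound by ETS factors such as ERG, which endothelial genes use.
Kdr promoter, chr5:75978456-75978705, minus strand: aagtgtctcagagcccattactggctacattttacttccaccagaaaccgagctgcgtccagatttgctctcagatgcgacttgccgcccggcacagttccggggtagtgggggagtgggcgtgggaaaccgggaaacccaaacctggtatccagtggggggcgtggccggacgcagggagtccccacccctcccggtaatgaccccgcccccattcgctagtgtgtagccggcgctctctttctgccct
Flt1 promoter, chr5:147726012-147726261, minus strand: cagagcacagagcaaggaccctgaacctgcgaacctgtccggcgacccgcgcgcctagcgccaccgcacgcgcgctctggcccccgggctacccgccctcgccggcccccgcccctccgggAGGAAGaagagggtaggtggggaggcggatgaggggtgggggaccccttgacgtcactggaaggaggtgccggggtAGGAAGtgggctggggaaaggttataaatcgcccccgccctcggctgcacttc
Tie1 promoter, chr4:118489850-118490099, minus strand: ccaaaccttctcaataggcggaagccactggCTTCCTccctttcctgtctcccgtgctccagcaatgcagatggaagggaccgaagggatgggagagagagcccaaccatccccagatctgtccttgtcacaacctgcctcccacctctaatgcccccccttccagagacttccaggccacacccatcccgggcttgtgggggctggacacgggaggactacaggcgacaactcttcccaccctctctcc
Tek promoter, chr4:94739039-94739288, plus strand: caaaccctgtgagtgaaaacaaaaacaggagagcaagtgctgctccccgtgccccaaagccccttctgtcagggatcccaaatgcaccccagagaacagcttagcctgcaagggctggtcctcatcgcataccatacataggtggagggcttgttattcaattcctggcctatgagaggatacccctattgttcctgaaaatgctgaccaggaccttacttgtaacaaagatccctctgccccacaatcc
The 6 letters occurred 2 times in the *Flt1* window, 1 time in that of *Tie1* and 0 times in those of *Kdr* and *Tek*. Of 32851 windows of the same length before RefSeq starts, 29.5% hold them at least 1 time, and a match is not a binding site.

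The wider pathway was read in CMs against the 21.3% of all genes called higher and the 19.6% called lower. Of 27 measured partners, 14 rose and 3 fell, with a median log2 fold change of 1.48 against 0.15 over all genes. *Dok2*, an adaptor of TIE2, rose by 4.79, *Itgb3*, the integrin beta-3 subunit, by 3.52, *Nos3*, endothelial nitric oxide synthase, by 2.63, and *Flt4*, which encodes VEGFR3, by 2.41. *Dok2* and *Itgb3* are also expressed in blood cells, and 8 of 8 macrophage markers were higher in KO CMs. *Shb*, *Grb14* and *Ptpn11* were the partners that fell. Of 22 HIF pathway genes, 8 fell and 1, *Ndrg1*, rose, with a median of 0.12 against 0.15 over all genes. In the same KO samples 8 of 8 cardiomyocyte markers fell, with a median of -4.33, and their part in these counts was not tested. *Higd1a*, a mitochondrial protein, fell by 2.63, *Pgk1*, a glycolytic enzyme, by 2.92, *Hif1an*, the asparagine hydroxylase that inhibits HIF, by 1.86 and *Egln3* by 2.65. Of 17 VEGF-induced genes, 10 rose and 1 fell, with a median of 2.04. In the same KO samples 10 of 10 endothelial and 8 of 8 macrophage markers were higher, with medians of 2.45 and 4.35. The part of these cell types in the VEGF-induced counts was not tested. *Egr1* rose by 2.70, *Plaur*, the urokinase receptor, by 3.77, *Nr4a2* by 2.59 and *Vcam1*, an adhesion molecule, by 3.33. Scaling without mitochondrially encoded genes moved the median of all genes in CMs from 0.15 to 0.97 and the called genes from 2773 higher and 2556 lower to 4707 and 1431. Under it, 8 HIF pathway genes were called higher, while the same number of members was called, 7 higher and 2 lower. Single libraries moved these counts. Partners called higher were 6 without KO 2, 7 without KO 3 and 9 without WT 1. VEGF-induced genes called higher were 6 without KO 2 and 6 without KO 3. HIF pathway genes called lower were 5 without KO 1 and 5 without KO 2. The share of all genes called without each sample was not counted, so whether the lists moved more than that share is not known.

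Balances within a sample, which no scaling can move, were compared last. In ECs *Vegfa* minus *Kdr* was -4.18 to -3.75 in WT and -4.62 to -4.07 in KO samples, and the ranges overlapped. In CMs it was 2.14 to 3.34 in WT and -4.09 to -1.54 in KO samples, and in FBs -0.33 to 3.08 and -1.90 to -1.18, without overlap in either. Endothelial markers had median log2 fold changes of 2.45 in CMs and 3.57 in FBs, and cardiomyocyte markers of -4.33 in CMs. A balance within a sample does not remove such differences between samples, and their part in the balances was not tested. *Angpt2* relative to *Angpt1* was 2.91 to 3.39 in WT and 3.24 to 3.67 in KO ECs, which overlapped. *Pgf* minus *Vegfa*, chosen after the values were seen, was -1.93 to -1.49 in WT and -0.51 to 0.04 in KO ECs. *Angpt2* relative to *Angpt1* was higher without overlap in KO FBs (0.09 to 0.42 against -2.04 to -1.24) and in KO CMs (1.02 to 3.06 against -3.18 to -0.31). *Flt1* relative to *Kdr* overlapped between genotypes in all 3 cell types, at 0.30 to 0.71 and 0.60 to 0.87 in ECs, -2.79 to 0.72 and 0.56 to 1.38 in FBs and -0.31 to 0.63 and -0.19 to 0.33 in CMs. *Tie1* relative to *Tek* was slightly higher in KO ECs (1.96 to 2.06 against 1.82 to 1.94), higher in KO FBs (1.18 to 1.76 against -4.46 to 0.47) and overlapped in CMs. The levels are not per kilobase, so the sign of a balance says nothing of which transcript had more copies.

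Genes with the most similar profile over the 20 samples were found from the root mean square (RMS) difference of centred log2 CPM among 8374 other genes (8375 for *Angpt1*) whose mean reached 10 CPM in 1 or more of the 3 tables. The samples share cell type, table and scaling, so the values are a description. *Tie1* had the closest match of all members, *Arhgef15*, with an RMS difference of 0.19, followed by *Rasip1* and *Mmrn2*, against a median of 2.33 over all genes. *Tek* was closest to *4930503L19Rik* (0.28), *Sparcl1* and *Plekhg1*, *Flt1* to *Gimap6* (0.34), *Zfp366* and *Gimap4*, and *Kdr* to *Tspan13* (0.37), *Tspan15* and *Clec14a*. Among the ligands *Vegfb* was closest to *Echs1* (0.26), *Coq10a* and *Gatd3a*, and *Vegfa* to *Slc35f5* (0.34), *Mccc1* and *Dusp18*. *Angpt2* was closest to *Tspan18* (0.30), *Tead2* and *Gm12758*, *Vegfc* to *Pcsk5* (0.33), *Apba1* and *Plppr3*, and *Pgf* to *Slco2b1* (0.37), *Gm15635* and *Ece1*. *Angpt1* had the least close match, *Rnf150* at 0.47, followed by *Zfpm2* and *Irs1*. No member was among the 3 closest genes of another member.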

How the data were processed

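mRNA of 20 samples of isolated cardiac cells was sequenced by the authors as single-end reads of 50 bases. The deposited tables hold log2 CPM per transcript and sample. Reads were trimmed with FastqCleaner, aligned to mm10 with bowtie2, annotated through biomaRt and tested in edgeR according to the methods, whereas the submitters' processing notes name DESeq2 beside Bowtie2 and mm10. Versions, the counting tool and the filter on low values are not given in the sources used here. The authors' own comparison columns, deposited as log2 fold changes, p-values, FDR and a likelihood ratio score, were not used. The tables were normalized separately and were fitted separately with limma 3.58.1 (trend, robust, statmod 1.5.0) in R 4.3.3, with p-values adjusted by Benjamini-Hochberg over 13929 (EC), 13563 (FB) and 13038 (CM) genes. Steps between low values, whole to within 0.1 read, gave reads per value and library sizes, and no count test was run. limma was tested on simulated data. The methods call replicates biological, and how many animals gave each sample is not given in the sources used here, so the p-values cover just the spread among the samples. Fold changes near the lowest value are understated. Members and gene lists were chosen with earlier results of these data known. Named genes are all members, up to 4 genes per list and table with the smallest adjusted p, and the 3 closest genes per member. Summaries used python 3.11.15, pandas 2.3.3 and numpy 2.4.6, and figures matplotlib 3.10.9.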

Additional observations from a re-analysis of the deposited data

Results flagged for a closer look

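In 2 of 20 EC groups of 4 samples, 1 sample stood far from the others by Dixon's test, which chance does in about 1 of 20 groups. *Pgf* in the sample KO-105 was at 3.81 log2 CPM, with a gap to the other 3 KO samples of 0.97 of the group's range. *Angpt1* in the sample KO-131 was at 0.12 log2 CPM, with a gap of 0.90 of the range, from 59 reads. For 3 members every KO sample lay on one side of the WT samples in ECs and on the other side in CMs, and for *Kdr* and *Flt1* in FBs too. These differences between cell types were not tested, since the tables were normalized separately. *Vegfc* had a log2 fold change of -0.78 in ECs and 2.85 in CMs. *Kdr* had -0.48 in ECs, 2.79 in FBs and 2.69 in CMs. *Flt1* had -0.26 in ECs, 4.27 in FBs and 2.67 in CMs.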

How the results depend on the processing

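Of the alternative values of member fold changes, 510 kept their direction and their side of the threshold, 8 gained a call, 17 lost it and 15 reversed. *Vegfa* in ECs was called under all 20 alternatives, with log2 fold changes of -0.84 to -0.66. CM depth of 10.6 to 20.2 M reads limits *Vegfc*, *Pgf*, *Angpt1* and *Angpt2*, and in CMs and FBs the spread between WT samples limits what 3 against 3 samples can show.

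In ECs, 0 members were called higher with a pseudocount of 5 CPM, with the endothelial marker mean as a covariate, or without KO-131 and KO-133 (chosen after seeing the data), and 1 lower under the last 2 settings. With no fold threshold 4 members were lower, 1 partner was higher and 1 lower, and 4 HIF pathway genes were higher and 1 lower. HIF pathway genes called lower were also 1 with Y-linked genes as a covariate and 1 without KO-131 and KO-133 (1 higher), and 4 were higher with the endothelial covariate. VEGF-induced genes called higher were 0 with that covariate and 0 without KO-131 and KO-133. In CMs the endothelial covariate left 0 members, 0 partners, 0 HIF pathway and 0 VEGF-induced genes in either direction. HIF pathway genes called higher in CMs were 2 with a pseudocount of 5 CPM, 2 with Y-linked genes as a covariate and 8 without mitochondrially encoded genes, a scaling with 0 VEGF-induced genes lower.

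Leaving out each replicate in turn gave 0 to 3 members higher and 0 to 2 lower in FBs and 4 to 7 higher in CMs. For partners it gave 0 to 6 higher and 0 to 3 lower in FBs and 6 to 17 higher in CMs, for HIF pathway genes 0 to 2 higher in FBs and 1 to 5 higher and 5 to 8 lower in CMs, and for VEGF-induced genes 1 to 2 higher in ECs, 0 to 1 higher and 0 to 1 lower in FBs and 6 to 11 higher and 0 to 2 lower in CMs. In FBs each maximum came without WT-260. The share of all genes called with a replicate left out was not counted, so whether these ranges differ from that share is not known.

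Some values reversed. *Tie1* in ECs was 0.0055 without mitochondrially encoded genes, and *Angpt1* in ECs -0.045 to 0.12 over samples left out. In FBs, *Vegfb* was -0.30 to 0.066 and *Pgf* -0.38 to 0.48 over samples left out, and the covariate gave *Vegfa* 0.42, *Pgf* -1.32, *Tie1* -0.29 and *Tek* -0.048. In CMs it gave *Kdr* -0.53, *Flt1* -0.24 and *Tek* -0.16, and *Angpt1* was 0.18 without mitochondrially encoded genes and -1.58 to 0.12 over samples left out. The causes were not tested.

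The CM labels share the replicate numbers 1 and 2 between genotypes. The deviations of the same-numbered samples correlated at 0.05 and 0.08 over 12907 genes, so the numbers were not taken as pairs. In a fit with the replicate block, WT 6 and KO 3 have no same-numbered partner and drop out of the genotype difference. It thus rests on the samples numbered 1 and 2. There, 7 members were called higher and 3 lower, *Angpt1* being the added call at -1.95, and 2 VEGF-induced genes were lower. The share of all genes called in that fit was not counted, and no conclusion was drawn from these calls.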
